A study of Caenorhabditis elegans with 12 samples.

Results

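Of 8226 MRG-1 sites, 220 lay on the X chromosome and had a peak in 2 or 3 lists of *glp-4(bn2)* animals, which lack a germline, and none in the 3 lists of wild-type N2. They were chosen by those calls. To form sites, peaks of the 6 lists were joined where they shared 1 bp or more, and a sample called a site that held one of its peaks. Of the 631 X sites with a call in at least 2 *glp-4(bn2)* lists, 34.9% had no N2 call, compared with 10.4% of 4533 autosomal sites and 13.4% of 5164 sites on all chromosomes. Since the rule used the calls of both strains, these shares and the folds below describe the sites and were not tested.

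MRG-1 was precipitated from whole animals at the L4 stage. N2 is the wild-type Bristol strain, and the other group was labelled strain SS104 with the temperature-sensitive *bn2* allele of *glp-4* on chromosome I, while the strain list of the study names another *glp-4* allele for SS104. Larvae of both strains were grown at 25° after maintenance at 15° (labels) or 20° (methods). At the higher temperature *glp-4(bn2)* animals keep only a few arrested germ cells, so their lists stand for somatic tissues in bulk, and fewer germ cells and less MRG-1 per cell cannot be told apart. Data of the 6 input libraries were not used here.

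MRG-1 is the worm ortholog of human MRG15, a chromodomain protein that recognizes trimethylated lysine 36 of histone H3, a mark of transcribed genes. In the *C. elegans* germline this mark is concentrated on autosomes, where MES-4 maintains it on genes expressed in germ cells, and the X chromosome is largely silent. In somatic cells of hermaphrodites both X chromosomes are transcribed at a level lowered by the dosage compensation complex. Positions below are 1-based and in the ce10 build. No annotation or sequence of that build was used here, so the sites are given by position and without gene names.

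The fold of a peak is the enrichment of its summit over the background that the peak caller MACS2 estimated there. The members lay in the lower part of each *glp-4(bn2)* list. Member peaks had a median fold of 1.70 in *glp-4(bn2)* replicate 1 (188 peaks), 1.74 in replicate 2 (226 peaks) and 1.73 in replicate 3 (217 peaks). Their median percentile among all peaks of the same list was 17.7, 19.9 and 20.5. Peaks of the 279 X sites called in all 6 samples had median folds of 2.59, 3.19 and 2.56 in the same lists, at percentiles 63.2, 69.4 and 62.7. The 470 autosomal sites chosen by the same rule resembled the X members, with median folds of 1.73, 1.78 and 1.72. Between 48.8% and 55.9% of the member peaks fell at or below percentile 20 of their list, and the highest member peaks reached percentiles of 67.9, 71.8 and 59.3. Above the median of the list were 10, 6 and 4 member peaks in replicates 1, 2 and 3. In N2 replicates 1, 2 and 3 the X sites called in all 6 samples stood lower. Their median folds there were 2.13, 1.87 and 2.04, at percentiles 43.3, 30.9 and 38.6. A lower standing in N2 was thus not particular to the members, and it was not tested.

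**Figure D1:**
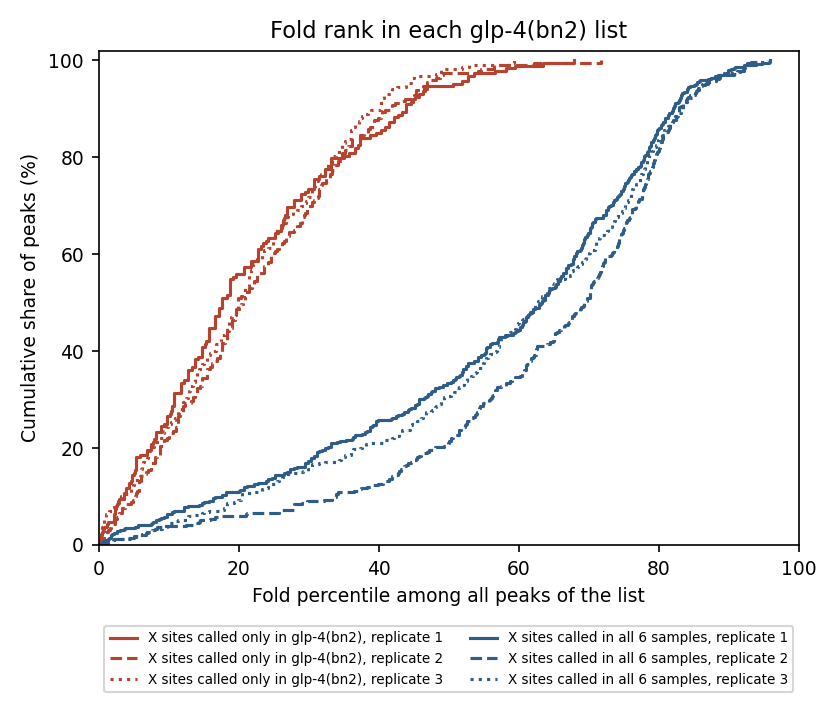
Cumulative share of peaks (%) against fold percentile within the list, for peaks of the 220 X sites called only in *glp-4(bn2)* (red) and of the 279 X sites called in all 6 samples (blue), 1 line per *glp-4(bn2)* list. The red lines rise steeply at low percentiles, with medians of 17.7 to 20.5, while the blue lines have medians of 62.7 to 69.4.

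The depth behind these calls was recovered from the lists, since the deposited p-values follow a Poisson distribution around one background level for most peaks. At that level, the median member peak had 148 extended reads over its summit in *glp-4(bn2)* replicate 1 (exact 95% Poisson interval 125 to 174), compared with a background of 85.0. In replicate 2 it had 189 reads (163 to 218) over a background of 105.9, and in replicate 3 231 reads (202 to 263) over 129.7. The intervals cover counting error only. Each median summit stood above its background by more than counting error, as a peak call requires, and 64.1% to 71.8% of the member peaks of a list were at the common level and could be read in this way. In the N2 lists the lowest fold called at the background level was 1.31, 1.32 and 1.34 in replicates 1, 2 and 3. In the *glp-4(bn2)* lists it was 1.36, 1.37 and 1.36, so most folds called there were above the N2 values by the call alone, and 10 members had a fold at or below 1.34 in one of their lists. No peak shorter than 300 bp appeared in any list, so enrichment over a shorter stretch could not be called.

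Replicates supported the members unequally. Of the 220 members, 121 (55.0%) had peaks in *glp-4(bn2)* replicates 1, 2 and 3, while 51 were called in replicates 2 and 3, 29 in replicates 1 and 2, and 19 in replicates 1 and 3. Replicate 2 called 201 members, replicate 3 called 191 and replicate 1 called 169. Of the X sites called in all 3 *glp-4(bn2)* samples, 23.6% had no N2 call, compared with 6.99% on the autosomes and 8.95% on all chromosomes.

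The 10 members called in all 3 *glp-4(bn2)* samples with the highest lowest fold were spread from one end of the X chromosome to the other. The first, at chrX:834578-836958, had folds of 2.45, 2.52 and 2.44 in replicates 1, 2 and 3, at percentiles 59.5, 56.4 and 59.0, and lay 63348 bp from the nearest X site called in all 6 samples. The next, at chrX:10576860-10578813, had folds of 2.25, 2.75 and 2.27 and lay only 692 bp from such a site. The replicates gave nearly equal folds at the first of these sites, and replicate 2 was highest at the second. At chrX:15866330-15868524 the folds were 2.82, 3.396 and 2.18, and that of replicate 2 was the highest of any member. This site and its shared neighbour were 363 bp apart. Replicate 3 was lowest both there and at chrX:788381-790332, which had folds of 2.60, 2.52 and 2.05.

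The other 6 of the 10 had lowest folds between 1.91 and 2.03. At chrX:5239508-5242573 the folds were 2.24, 2.04 and 2.03 in replicates 1, 2 and 3. At chrX:17406764-17408655, close to the right end, they were 2.21, 2.29 and 2.02. At chrX:4473189-4475923 they were 2.01, 2.07 and 2.02, the closest agreement of the 10. The narrowest of the 10, the 578 bp at chrX:11562982-11563559, had folds of 1.95, 2.20 and 2.45, and the nearest N2 peak lay 500 bp away. At chrX:8368962-8370093 the folds were 1.94, 2.19 and 1.95, and at chrX:15843573-15844370 they were 2.04, 1.98 and 1.91. Every fold was at least 2 in 7 members and at least 1.5 in 172.

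At the edge of the rule, the values ran on without a gap. Of the 631 X sites, 63 had exactly 1 N2 call, which came from N2 replicate 1 in 30 cases, from replicate 2 in 27 and from replicate 3 in 6. Among them were 55 sites of all 3 *glp-4(bn2)* samples, whose lowest *glp-4(bn2)* fold had a median of 1.84 (range 1.46 to 2.47), against 1.64 (1.25 to 2.44) for the 121 members called in all 3. In N2 the folds of these 55 sites had a median of 1.49 and reached 1.84. The strongest just outside, chrX:921126-924537, had folds of 2.47, 2.97 and 3.12 in *glp-4(bn2)* replicates 1, 2 and 3 and of 1.84 in N2 replicate 2. The next, chrX:13975782-13977118, had *glp-4(bn2)* folds of 2.43, 2.76 and 2.45 and an N2 replicate 2 fold of 1.47, and chrX:6241051-6242539 had 2.31, 2.50 and 2.38 with 1.47 in N2 replicate 1. These single N2 calls were thus low in their own lists, at percentiles 29.2, 4.58 and 5.33. Just inside, the members of 2 samples with the lowest higher fold were chrX:14521113-14521670, chrX:15370853-15371443 and chrX:3164847-3165412, where that fold was 1.499, 1.502 and 1.51.

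X and autosomal sites were also compared at like rank in the *glp-4(bn2)* lists. Among sites with at least 2 *glp-4(bn2)* calls and a mean fold percentile of 20 to 40, an N2 list lacked 78.8% ± 7.98 (SD, n = 3 lists) of the 171 X sites and 29.3% ± 2.28 of the 1077 autosomal sites. The 3 N2 lists gave 69.6%, 84.2% and 82.5% on the X chromosome and 29.3%, 27.0% and 31.6% on the autosomes. Below percentile 20 the N2 lists lacked 90.5% ± 3.84 of 123 X sites and 51.0% ± 4.79 of 495 autosomal sites (SD, n = 3 lists each). Between percentiles 40 and 60 they lacked 26.3% ± 5.65 of 128 and 11.4% ± 2.00 of 916 (SD, n = 3 lists each). From the lowest range up, 103, 105 and 11 of these X sites were members, so the rule itself enters these shares. Without any N2 call were 193, 231 and 43 of the autosomal sites. Between percentiles 60 and 80, 1 of 151 X sites and 3 of 790 autosomal sites had no N2 call at all, and above percentile 80 none of 58 and 1255 did. Ranks and calls belong to the contrast that chose the members, so the difference was not tested.

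**Figure D2:**
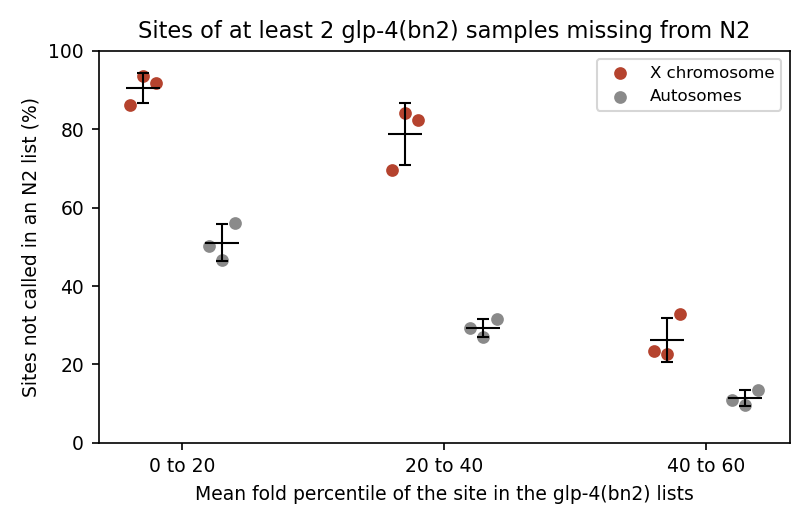
Sites with at least 2 *glp-4(bn2)* calls that an N2 list lacked (%), by mean fold percentile in the *glp-4(bn2)* lists, on the X chromosome (red) and the autosomes (grey). Each point is 1 N2 list, and bars give the mean and SD of 3 lists. At percentiles 20 to 40 the means were 78.8% and 29.3%. The lack of N2 calls is part of the rule that chose the members, so the difference was not tested.

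Calls of each sample were also counted at sites chosen without it. The same calls entered the rule for the members, so these shares give no support beyond the counts above. With each *glp-4(bn2)* sample left out in turn, X sites were taken that both other *glp-4(bn2)* samples and no N2 sample had called. The sample left out called 72.3% of 184 such sites for replicate 1 (95% Wilson interval 65.4% to 78.2%), 87.9% of 157 for replicate 2 (81.9% to 92.1%) and 81.3% of 155 for replicate 3 (74.4% to 86.6%). The Wilson intervals here and below take sites as independent, which neighbouring sites are not. Autosomal sites of the same kind were called in 76.5%, 90.3% and 75.8% of cases. Between X and autosomes the order was thus not the same in every replicate. X sites that both other *glp-4(bn2)* samples and all 3 N2 samples had called were found again in 283 of 285 cases for replicate 1, 286 of 286 for replicate 2 and 280 of 280 for replicate 3.

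For each N2 sample left out, X sites were taken that at least 2 *glp-4(bn2)* samples and neither other N2 sample had called. The N2 sample left out called 12.0% of 250 sites for replicate 1 (8.54% to 16.6%), 11.3% of 248 for replicate 2 (7.93% to 15.8%) and 2.65% of 226 for replicate 3 (1.22% to 5.67%). These shares cannot be set against those of the *glp-4(bn2)* samples, because the sites were required to lack a call in both other N2 samples. On X sites chosen the opposite way, with calls in both other N2 samples and no *glp-4(bn2)* sample, the N2 sample left out called 7 of 8 sites for replicate 1, 8 of 14 for replicate 2 and 9 of 11 for replicate 3. On the autosomes such sites were called in 88.1%, 86.9% and 74.2% of cases. On the autosomes N2 replicate 2 called 24.1% of 619 sites (20.9% to 27.6%), more than the 9.27% and 3.09% of replicates 1 and 3. The X chromosome showed no such excess of replicate 2. The number of members moved to between 226 and 250 when an N2 sample was left out and to between 155 and 184 when a *glp-4(bn2)* sample was. These directions follow largely from the rule. Without an N2 list fewer lists can exclude a site, and without a *glp-4(bn2)* list both others must call it.

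**Figure D3:**
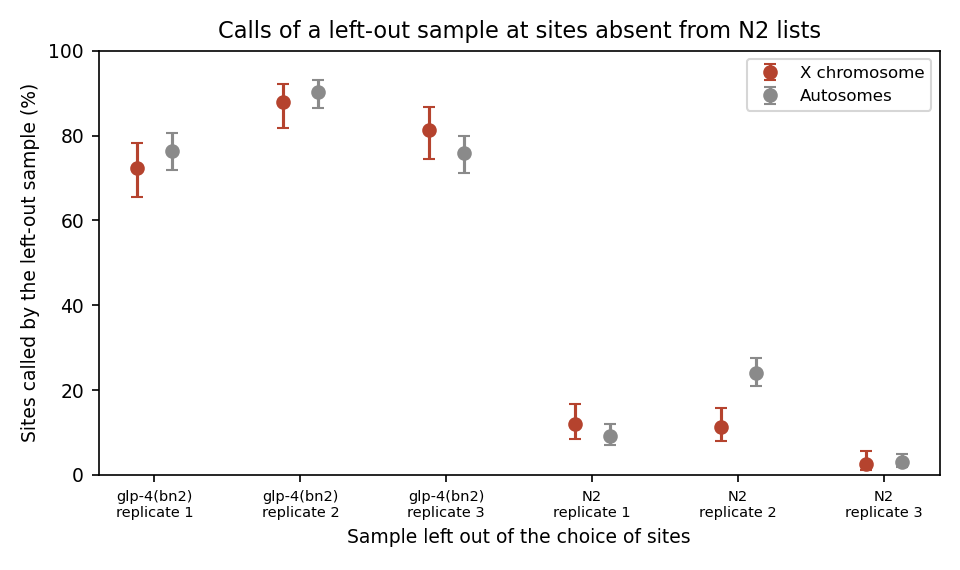
Share of sites (%) called by the sample left out of their choice, on the X chromosome (red) and the autosomes (grey), with 95% Wilson intervals. The intervals take sites as independent, which neighbouring sites are not. For *glp-4(bn2)* samples the sites came from both other *glp-4(bn2)* samples and no N2 sample, and 72.3% to 87.9% of the X sites were called. For N2 samples they came from at least 2 *glp-4(bn2)* samples and neither other N2 sample, and 2.65% to 12.0% of the X sites were called. The shares of N2 and *glp-4(bn2)* samples cannot be compared, because the sites for N2 were required to lack a call in both other N2 samples.

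For the highest peak of each sample in a member, the median distance between summits was 144 bp for replicates 1 and 2 (150 members), 161 bp for replicates 1 and 3 (140 members) and 88 bp for replicates 2 and 3 (172 members). At X sites called in all 6 samples the medians were 104, 107 and 92 bp. Peaks of a member overlap by the way sites were formed, which by itself limits these distances. Across members, Spearman's rho between the folds of a pair of replicates was 0.36, 0.27 and 0.27, while across X sites called in all 6 samples it was 0.91, 0.89 and 0.91. These correlations are descriptions across sites of the same libraries, and members span a narrower range of folds.

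Members were narrow. Their median width was 799 bp (quartiles 602 and 1167 bp, range 371 to 3461 bp), compared with 2749 bp for X sites called in all 6 samples and 833.5 bp for the autosomal sites of the same rule. Merging widens sites with calls from more samples. The single peaks were narrower too, with median widths of 511.5, 567.5 and 564 bp for members and of 1631, 2185 and 1690 bp for X sites called in all 6 samples, in replicates 1, 2 and 3. A width of at least 2000 bp was reached by 9 members (4.09%) and by 206 of the 279 sites of all 6 samples (73.8%). The widest member, chrX:1479941-1483401, had folds of 2.40, 1.78 and 1.98 in replicates 1, 2 and 3. It was followed by chrX:14122516-14125714, with folds of 2.25, 2.11 and 1.91, and by chrX:5239508-5242573, which also ranked among the 10 above. In 178 members each calling sample had a single peak. Together the members covered 211.9 kb, of which 143.5 kb (67.7%) was shared by 2 or more *glp-4(bn2)* samples.

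The members lay along the whole X chromosome. Divided into 3 equal parts up to the end of the last X peak, at 17.7 Mb, the chromosome held 86 members on the left, 58 in the middle and 76 on the right. The middle thus had 26.4% of the members (95% Wilson interval 21.0% to 32.6%), and it had 35.1% of the X sites called in all 6 samples (29.8% to 40.9%). Of the 411 other X sites with at least 2 *glp-4(bn2)* calls, the middle had 34.1% (29.6% to 38.8%). Overlap of such intervals does not show that shares are equal, and neighbouring sites are not independent. The lower share of members in the middle was not tested. By 1 Mb bins the count of members ranged from 6 to 19, and no bin was empty. The densest bin, from 4 to 5 Mb, held 19 members, and the bins from 16 to 17 Mb and from 6 to 7 Mb held 6 and 7.

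**Figure D4:**
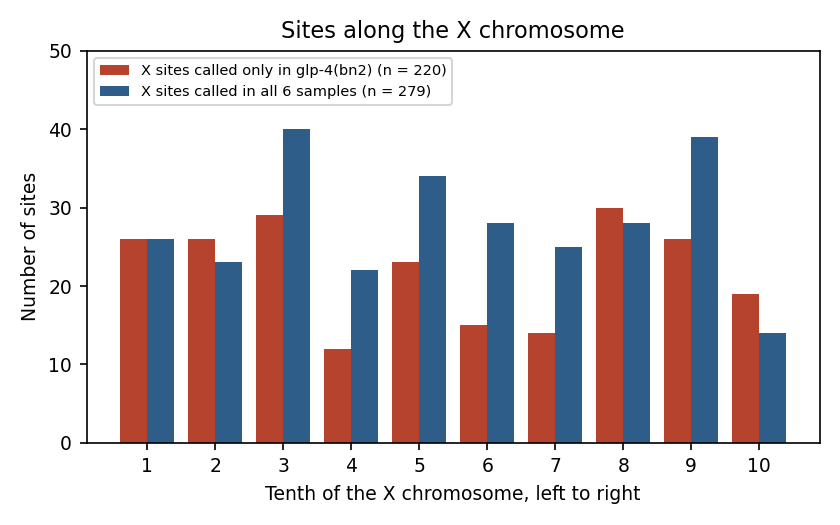
Number of sites in each of 10 equal parts of the X chromosome, numbered from left to right, for the 220 X sites called only in *glp-4(bn2)* (red) and the 279 X sites called in all 6 samples (blue). The red bars range from 12 to 30 sites and fall below the blue bars in parts 3 to 7 and in part 9. Bars are counts and were not adjusted for the different numbers of sites in the groups.

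Many members stood in pairs or small groups. The gap between neighbouring members had a median of 33653 bp (59258.5 bp without *glp-4(bn2)* replicate 3), yet 39 of 219 gaps were at most 1 kb. With members joined across gaps of at most 5 kb, 114 members (51.8%) fell into 47 groups of 2 to 5 members, and the other 106 stood alone. By comparison, 47.9% of the autosomal sites of the same rule had another such site within 5 kb. Of the X sites called in all 6 samples, 42.3% had another within 5 kb, so such grouping was not particular to the members. In the order of all merged X sites, 127 members had another member as a direct neighbour. No matching count was made for other kinds of site, so this number does not by itself show grouping. The longest run held 6 members with no other site between them, from 4988141 to 4997797. The first 5 were separated by gaps of 116, 248, 99 and 157 bp, and the last followed after 5139 bp. Folds in this run ranged from 1.36 to 2.20, and the highest was that of replicate 2 at chrX:4996942-4997797, where replicates 1 and 3 had 1.67 and 1.86. Of the 6, 3 were called in every *glp-4(bn2)* sample. The nearest peak of any N2 sample was 17093 bp away. With gaps of up to 500 bp joined, 151 members were left in place of 220, and 178 of the 220 still lay in one.

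The distance to the nearest X site called in all 6 samples had a median of 14111.5 bp and ranged from 12 to 177401 bp. It was at most 1 kb for 26 members (11.8%), between 1 and 10 kb for 66 and more than 10 kb for 128 (58.2%). By comparison, X sites called in all 6 samples had a median distance of 8283 bp to the next such site, and autosomal sites of the same rule lay at a median of 9094 bp from an autosomal site called in all 6 samples. Sites called in all 6 samples numbered 279 on the X chromosome and 3299 on the autosomes. The distances were not adjusted for the density of these sites, so X and autosomal medians are not directly comparable. The X sites most like the members were 132 with at least 2 *glp-4(bn2)* calls and some N2 calls but not all 6. Their median distance was 16396.5 bp. Of these 132, 15.2% lay within 1 kb, 33.3% within 5 kb and 37.9% within 10 kb, compared with 11.8%, 29.1% and 41.8% of the members. To the larger set of X sites called in at least 4 samples of both strains, the members' median distance was 6562 bp. The 26 members at most 1 kb from a shared site had median folds of 1.75, 1.84 and 1.79 in replicates 1, 2 and 3, and the 128 beyond 10 kb had 1.70, 1.74 and 1.73. Members of 3 samples and of 2 samples had similar distances, with medians of 14126 and 13678 bp. Measured to any N2 peak, the median distance was 6755 bp, and 36 members had an N2 peak within 1 kb.

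The 3 members farthest from a shared site had folds of up to 1.90. That at chrX:6555300-6556657, 177401 bp from a shared site, had folds of 1.51, 1.54 and 1.64 in replicates 1, 2 and 3, although an N2 peak lay 528 bp away. That at chrX:16035279-16035967 was called in replicates 2 and 3 with folds of 1.60 and 1.79, and it lay 169312 bp from a shared site and 105713 bp from any N2 peak. The third, at chrX:12666213-12667630, had folds of 1.65, 1.90 and 1.78 and the greatest distance to an N2 peak among the 3, 157494 bp.

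**Figure D5:**
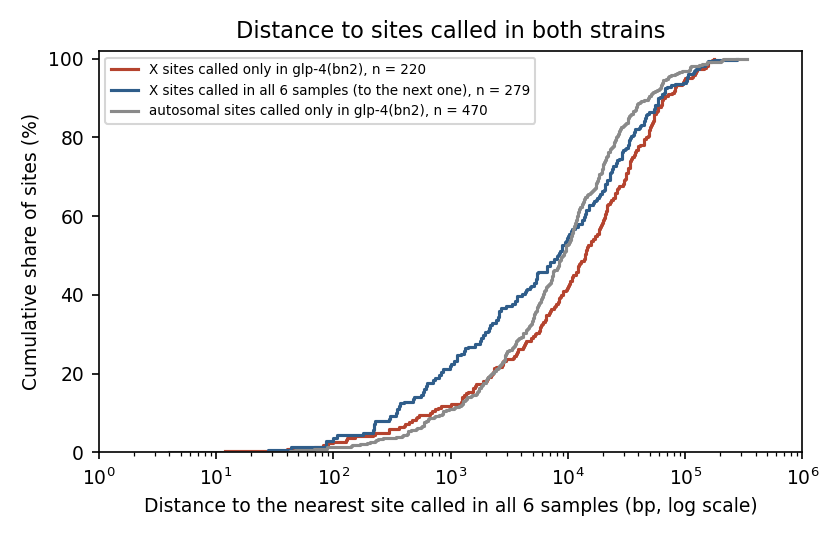
Cumulative share of sites (%) against the distance to the nearest site called in all 6 samples (bp, log scale). The 220 X sites called only in *glp-4(bn2)* (red) had a median of 14111.5 bp, the 470 autosomal sites of the same rule (grey) 9094 bp, and the 279 X sites called in all 6 samples (blue), each measured to the next, 8283 bp. Distances were not adjusted for the density of sites called in all 6 samples.

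It was next asked whether shared sites next to a member ranked differently in the strains. Of the 279 X sites called in all 6 samples, 55 (19.7%) had a member within 5 kb. Their median fold percentile exceeded that of the other 224 by 6.84, 5.67 and 6.48 in *glp-4(bn2)* replicates 1, 2 and 3 and by 5.86, 4.46 and 7.11 in N2 replicates 1, 2 and 3. Shared sites near a member therefore ranked higher in all 6 lists, and the values of the strains overlapped. The excess was 6.33 ± 0.597 in *glp-4(bn2)* and 5.81 ± 1.32 in N2 (SD, n = 3 each), a difference of 0.52 that was within the spread (two-sided exact permutation test, p = 0.7, where the smallest possible is 0.1). The difference was not stable. Its sign turned without *glp-4(bn2)* replicate 3 (-0.44) and without N2 replicate 3 (-0.11), while it was 0.30 and 3.56 without *glp-4(bn2)* replicates 1 and 2, 5.61 without N2 replicate 1 and 0.85 without N2 replicate 2. It was 2.96 for members within 2 kb (exact permutation test, p = 0.4) and 2.73 with peaks of a q-value up to 1e-05, where the strains did not overlap (exact permutation test, p = 0.1, the smallest possible). Near a member, shared sites had a median width of 3003 bp, compared with 2680.5 bp for the others.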

How the data were processed

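Paired-end reads had been aligned by the authors (Bowtie2 2.3.2, ce10), and each replicate had its own MACS2 2.1.0 peak call (q-value limit 0.05, extension 300 bp). The control of the peak calls is not given in the sources used here. The deposited lists give per peak the fold (a ratio to the local background), its p-value and q-value (each as −log10), and a score that is a multiple of the −log10 q-value and was not used. Lists were used as deposited. Folds and percentiles describe a peak within its list. Nothing in the labels says that replicates came from separate cultures, so their spread may be technical.

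Background levels were recovered as the Poisson mean that fitted most p-values up to a −log10 of 60 (69.9% to 77.4% per list, within 1e-04). They were 60.6 to 68.9 scaled reads per base in *glp-4(bn2)* and 77.2 to 96.8 in N2, and whole reads follow from a scaling factor recovered from the folds (at least 99.9% whole within 0.02 reads). Merging, site rules and this recovery were tested on simulated lists. The lists held 7073 to 7737 peaks, of which 482 to 826 lay on the X chromosome.

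The named sites follow a rule: the 10 members of all 3 *glp-4(bn2)* samples with the highest lowest fold, the 3 farthest from an X site called in all 6 samples, the 3 widest, the longest run, and the 3 just inside and just outside the rule. The members and these lists were chosen with earlier results of these data known. Alternatives were stricter q-values, other overlaps, summit windows, equal list lengths, other support rules and leaving out each sample. Python 3.11.15, numpy 2.4.6, pandas 2.3.3, scipy 1.17.1 and matplotlib 3.10.9 were used.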

Additional observations from a re-analysis of the deposited data

How the results depend on the processing

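Of 164 recomputed values, 103 stayed close to those reported (within 1.5 times a count, the reported interval or 1 SD, or in direction). For distance, width and gap, the SD was taken over the medians of the members that each *glp-4(bn2)* list called. These sets of members overlap, so this SD does not measure a spread of replicates. The members numbered 121 with a call required in every *glp-4(bn2)* sample and 374 with 1 call enough, and 155 to 250 without 1 sample. The share of X sites with no N2 call was 28.2% with a q-value of at most 1e-05 in *glp-4(bn2)* only, 29.3% with gaps of 500 bp joined, 23.6% and 47.4% with 3 or 1 calls required, 44.8% with 1 N2 call allowed, and 27.3% to 39.6% without 1 sample. The left part of the X chromosome held 47.1% of the members with 3 calls required, and without 1 sample the left, middle and right parts held 37.5% to 49.0%, 23.6% to 27.6% and 27.4% to 35.1%.

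The median distance to a shared X site was 13857 bp at q-values up to 0.001, 17811 bp with summit windows, 13678 bp with equal numbers of top peaks, 14453 bp with 1 call enough, 14638 bp with 1 N2 call allowed, 15725 bp between summits, 6562 bp to the larger set of sites of at least 4 samples, and 11025.5 to 14177 bp without 1 sample. The median width was 840.5 and 945 bp at q-values up to 0.001 and 1e-05, 855 bp with the latter in *glp-4(bn2)* only, 1083 bp with gaps joined, 649.5 bp with windows, 859 bp with equal lists, 1009 and 580 bp with 3 or 1 calls required, 872 bp with 1 N2 call allowed, 551 bp for single peaks, 513 bp for bases of at least 2 samples, and 770 to 853 bp without 1 sample. The median gap between members was 36656 and 53558.5 bp at q-values up to 1e-05 in all lists or in *glp-4(bn2)* only, 31111 bp with a 150 bp overlap, 63451.5 bp with gaps joined, 26819 bp with windows, 39815.5 bp with equal lists, 68322 and 13508 bp with 3 or 1 calls required, 26362 bp with 1 N2 call allowed, and 29600 to 59258.5 bp without 1 sample. Where the alternative's own rule does not account for a move, the cause was not tested.

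The mean over lists of the median fold percentile, 19.4, was 27.6 among X peaks, 22.5 for members of 3 samples, and 19.8 to 21.4 without 1 sample. The summit distance ranged from 88 to 161 bp. The strain difference of 0.52 at shared sites near members ranged from -0.44 to 5.61 without 1 sample and was 2.73 at q-values up to 1e-05. The replicate numbers gave no pairing: deviations of same-numbered samples at 279 shared X sites correlated at -0.08, -0.08 and 0.02. With the replicate block the difference was again 0.52 (exact sign-flip test, p = 0.5).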
